A study of Homo sapiens with 21 samples.

Results

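Inhibition of PRMT5 was set against inhibition of the type I arginine methyltransferases in SK-MEL-147, an established human melanoma cell line. The members were the 6 libraries labelled for those treatments, 3 from cells treated with GSK-591, an inhibitor of PRMT5, and 3 from cells treated with MS023, an inhibitor of the type I enzymes, out of 21 in the series. The other 15 libraries came from the same line treated with TP-472 (an inhibitor of the bromodomain proteins BRD9 and BRD7), GSK-484 (PAD4), UNC0642 (the lysine methyltransferases G9a and GLP) or JQ-1 (BET bromodomain proteins), or left untreated, with 3 libraries per group. The sources used here do not give doses, treatment times or a vehicle, so whether the compounds were used at matched doses and times is unknown. RNA was poly-A selected and sequenced on an Illumina HiSeq instrument, and the measurement was the expected count per gene, an estimate that divides reads matching several genes among them.

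Protein arginine methyltransferases transfer methyl groups from S-adenosylmethionine to arginines. Type I enzymes (PRMT1, PRMT2, PRMT3, CARM1, PRMT6 and PRMT8) form asymmetric dimethylarginine, whereas the type II enzymes PRMT5 and PRMT9 form the symmetric form and PRMT7 forms monomethylarginine only. RNA-binding proteins rich in arginine and glycine, the Sm core of the spliceosome and histone tails are well known substrates, and several of them can be methylated by enzymes of either type. GSK-591 and MS023 therefore act on the same chemistry at partly the same proteins, and the direct contrast reads out where the transcriptomes diverged.

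Summed expected counts were 20978182 to 38265837 in the GSK-591 libraries, 35852990 to 50275940 in the MS023 libraries and 35089548 to 47741066 in the untreated libraries. Ribosomal RNA genes took 7.84 to 9.09% of counts with GSK-591 and 6.65 to 8.19% with MS023. Replicates differed by more than sampling noise in every pair (chi-square per degree of freedom 3.52 to 11.4), so each library was counted as its own sample. The series calls the replicates biological but does not say whether each had its own culture, so the p-values reflect the spread among these samples alone, and that spread may be technical. Expression is given in CPM, counts scaled to a common library size with TMM factors, and fold changes are log2 ratios of GSK-591 over MS023 unless another pair is named. In bulk RNA, fewer cells of a kind and less RNA per cell cannot be told apart.

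The transcriptomes under the compounds differed at many genes, mostly by little. Of 15062 genes tested, 1490 (9.89%) had a Benjamini-Hochberg adjusted p under 0.05 in the edgeR quasi-likelihood test and are referred to as called, 818 of them higher with GSK-591 than with MS023 (5.43%) and 672 lower (4.46%). The median absolute log2 fold change of the called genes was 0.23, a factor of 1.17, and 136 exceeded 1.5-fold, of which 44 had fractional counts, a sign of reads shared with another gene. Libraries of the groups did not overlap at 1463 of the called genes and at 29.5% of all genes tested. When the test asked for a difference beyond 1.5-fold instead of any difference, 5 genes passed (0.0332%). NT5E, OPN3 and PRKACB were higher with GSK-591, and DDX39B and the noncoding LINC-PINT were lower. Scaling by total counts gave 516 higher and 666 lower genes, a share of 43.7% higher against 54.9% with TMM. Leaving out 1 library at a time gave 827 to 1200 calls, with 837 and 827 without GSK-591 replicates 2 and 3, and 868 and 846 without MS023 replicates 1 and 2.

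**Figure D1:**
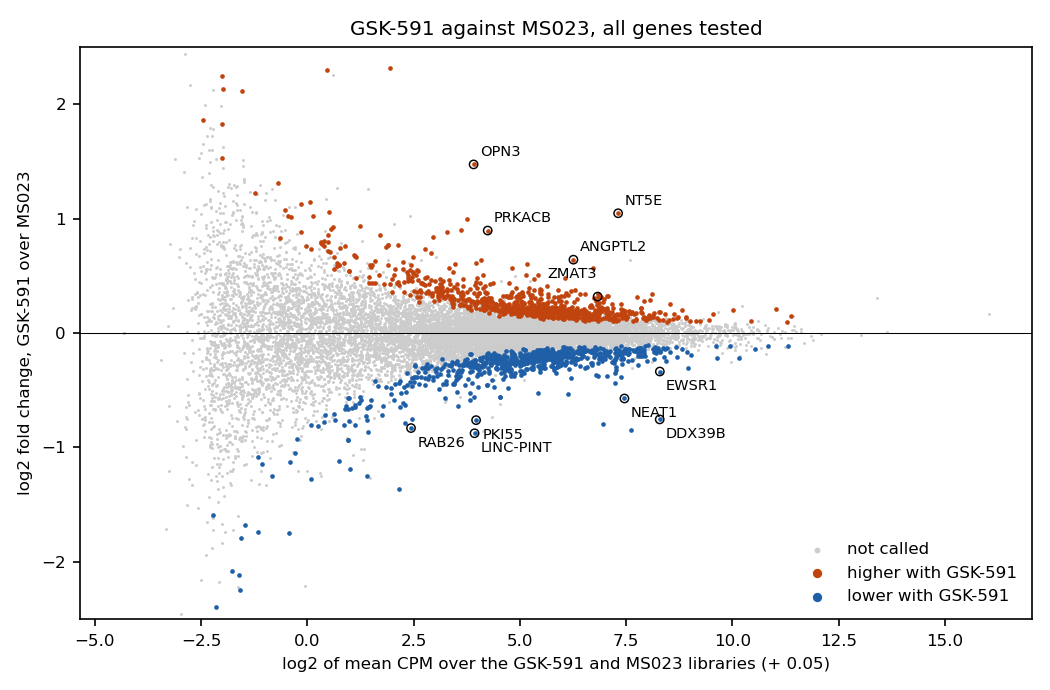
Log2 fold change of GSK-591 over MS023 (vertical axis) against the log2 mean CPM over the 6 libraries (horizontal axis, 0.05 added), with 1 point per gene tested and called genes in colour. Most called genes lie close to 0, while NT5E, OPN3 and PRKACB stand above and DDX39B and LINC-PINT below, and 28 genes outside the vertical range of ±2.5 are not drawn.

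The proximal promoters of these 5 genes are shown because these genes passed the test beyond 1.5-fold, and they are unlike in base composition and motifs. Each is the 250 bases upstream of a RefSeq transcription start (GRCh38.p14), read 5′ to 3′ on the strand of the gene. Capitals mark matches, on either strand, to 6 short motifs. The TATA box was searched as TATAAA. The GC box, bound by SP1-like factors, was searched as GGGCGG. The E-box was searched as CACGTG and the cyclic AMP response element as TGACGTCA. The AP-1 site was searched as TGANTCA, and the CCAAT box by the letters of its name. Where RefSeq lists several starts, the one nearest the 5′ end of the gene in GENCODE was taken. The OPN3 start used lies inside the GENCODE gene span and not at its 5′ end. The NT5E and DDX39B windows also lie wholly inside the GENCODE spans of their genes, and the PRKACB window overlaps the start of its span. LINC-PINT has more than 1 gene model in GENCODE, the window is that of the shorter, and which was counted is not stated in the sources used here.
NT5E: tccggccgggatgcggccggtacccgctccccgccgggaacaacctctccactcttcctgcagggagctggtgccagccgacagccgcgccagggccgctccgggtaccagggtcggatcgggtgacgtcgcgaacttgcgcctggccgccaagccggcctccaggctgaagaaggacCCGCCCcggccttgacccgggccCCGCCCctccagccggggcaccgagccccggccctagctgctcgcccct
PRKACB: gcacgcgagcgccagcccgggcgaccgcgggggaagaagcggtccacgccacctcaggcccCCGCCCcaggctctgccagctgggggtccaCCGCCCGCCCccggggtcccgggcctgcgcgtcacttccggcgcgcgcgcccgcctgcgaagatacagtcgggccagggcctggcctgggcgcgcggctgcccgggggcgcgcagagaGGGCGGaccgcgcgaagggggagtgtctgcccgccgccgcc
OPN3: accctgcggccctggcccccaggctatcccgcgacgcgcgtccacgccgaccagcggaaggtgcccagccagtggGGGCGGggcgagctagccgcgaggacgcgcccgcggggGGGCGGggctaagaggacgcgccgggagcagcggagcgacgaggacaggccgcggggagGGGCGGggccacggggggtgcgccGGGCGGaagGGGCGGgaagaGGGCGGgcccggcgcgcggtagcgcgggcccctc
DDX39B: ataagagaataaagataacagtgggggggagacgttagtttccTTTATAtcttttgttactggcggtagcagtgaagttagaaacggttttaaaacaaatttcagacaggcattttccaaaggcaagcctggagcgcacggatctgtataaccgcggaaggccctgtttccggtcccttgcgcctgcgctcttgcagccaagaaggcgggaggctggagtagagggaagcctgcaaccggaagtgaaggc
LINC-PINT: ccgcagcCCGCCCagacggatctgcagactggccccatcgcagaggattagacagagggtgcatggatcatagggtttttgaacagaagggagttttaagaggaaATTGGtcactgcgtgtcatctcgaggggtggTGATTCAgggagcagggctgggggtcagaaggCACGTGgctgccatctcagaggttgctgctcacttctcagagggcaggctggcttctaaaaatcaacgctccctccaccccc
The windows of PRKACB and OPN3, from chr1:84077829-84078078 (+) and chr1:241640370-241640619 (-), were 80.8% and 81.6% G or C and held 4 and 6 GC boxes. The NT5E window at chr6:85449833-85450082 (+) was 75.2% G or C with 2 GC boxes. DDX39B, at chr6:31542004-31542253 (-), was 50.4% G or C with 1 TATA box. LINC-PINT, at chr7:130913311-130913560 (-), was 57.2% G or C and held 1 GC box, 1 E-box, 1 AP-1 and 1 CCAAT match. GC boxes occurred in 42.6% of 35116 RefSeq promoter windows of this length and TATAAA in 10.7%, CCAAT in 32.0%, TGANTCA in 6.57% and CACGTG in 6.35%. For tested genes matched to windows, a gene was counted if any of its windows held the motif, unlike the shares per window above. GC boxes stood in 71.7% of 470 genes higher with GSK-591, 77.1% of 428 lower and 72.3% of all 10975 matched. E-boxes stood in 7.23%, 13.1% and 10.9%. The higher and lower genes here were those called in the same direction before and after correction for transcript GC content. A match is a run of letters and no evidence of binding.

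NT5E encodes CD73, the cell surface ecto-nucleotidase that makes adenosine from AMP. At chr6:85449584-85495791 (+), it had 216, 208 and 217 CPM with GSK-591, 103, 102 and 105 CPM with MS023, and 240, 237 and 237 CPM in untreated cells. All 3 MS023 libraries lay below the GSK-591 libraries and below the 12 TP-472, GSK-484, UNC0642 and untreated libraries, which ran from 217 to 262 CPM. The difference was 1.05 on the log2 scale (SE 0.031, edgeR adjusted p = 2.91e-16), or 2.07-fold. Against the same untreated libraries, NT5E fell by 0.15 with GSK-591 (SE 0.031, adjusted p = 0.000597) and by 1.2 with MS023 (SE 0.031, adjusted p = 1.26e-17).

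PRKACB, a catalytic subunit of protein kinase A (chr1:84078062-84238498, +), showed the same arrangement. Its level was 25.0, 24.4 and 24.1 CPM with GSK-591, 13.1, 12.3 and 14.3 CPM with MS023, and 31.8, 27.6 and 28 CPM in untreated cells. The GSK-591 libraries sat inside the range of the 12 TP-472, GSK-484, UNC0642 and untreated libraries (23.2 to 31.8 CPM) and the MS023 libraries below it. The log2 fold change was 0.90 (SE 0.063, edgeR adjusted p = 2.27e-09), a 1.86-fold difference.

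OPN3, an opsin (chr1:241590102-241677376, -), read 22.2, 21 and 22.7 CPM with GSK-591 and 8.39, 7.39 and 8.13 CPM with MS023, against 20.2, 18.9 and 22.2 CPM in untreated cells. The MS023 values were again the separate ones, the range over the 12 other libraries being 18.7 to 23.3 CPM. The log2 fold change of 1.47 (SE 0.080, edgeR adjusted p = 3.22e-11) is uncertain, because the gene spans CHML on the same strand and their reads were divided by estimation. CHML, a Rab escort protein gene, averaged 57.7 CPM with GSK-591 and 83.4 CPM with MS023. The sum of OPN3 and CHML was 79.7 ± 1.27 CPM with GSK-591, 91.4 ± 6.51 CPM with MS023 and 104 ± 9.79 CPM in untreated cells (SD, n = 3 each), so the sum ran opposite to OPN3. OPN3 made up 27.6% of it with GSK-591, 8.72% with MS023 and 19.8% in untreated cells.

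In the other direction, DDX39B had the smallest p-value. It encodes an RNA helicase that acts in spliceosome assembly and in the TREX complex for messenger RNA export. Its counts were fractional, and it was named after its values were seen. At chr6:31530219-31542448 (-) it had 230, 228 and 240 CPM with GSK-591, 381, 406 and 391 CPM with MS023, and 239, 248 and 251 CPM in untreated cells. All 3 MS023 libraries exceeded the 239 to 278 CPM of the 12 other libraries, and the GSK-591 libraries were at or under their lower end. The log2 fold change was -0.75 (SE 0.035, edgeR adjusted p = 1.73e-12), 1.69-fold higher with MS023. Adding the read-through transcript that shares its reads left 234 CPM with GSK-591 against 394 CPM with MS023. Against untreated cells the values were -0.08 for GSK-591 (adjusted p = 0.0856) and 0.68 for MS023 (adjusted p = 1.49e-11).

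LINC-PINT, a long noncoding RNA, was at 10.0, 11.6 and 10.7 CPM with GSK-591, 19.6, 20.3 and 19.0 CPM with MS023, and 11.6, 11.5 and 11.4 CPM in untreated cells. The 12 other libraries spanned 9.85 to 12.2 CPM, with the GSK-591 libraries inside that range and the MS023 libraries above it. Its log2 fold change was -0.88 (SE 0.055, edgeR adjusted p = 4.65e-10). NEAT1, the noncoding RNA that scaffolds paraspeckles, lay in the same direction, with 136, 144 and 144 CPM under GSK-591, 217, 206 and 208 CPM under MS023, and 162 CPM on average in untreated cells. Here the groups departed on opposite sides of the 12 other libraries (147 to 175 CPM). The NEAT1 log2 fold change was -0.57 (SE 0.038, edgeR adjusted p = 1.18e-09), from fractional counts.

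The 12 largest rises among called genes with at least 3 CPM, no overlap, whole counts and a call that held after the GC trend of each library was removed were NT5E, PRKACB, C6orf226, LINC00622, PTCHD4, KCNJ14, FBXO36, TENM2, C12orf66, ANGPTL2, MAP2K6 and MYPN. In 8 of them all 3 MS023 libraries lay outside the range of the 12 other libraries, and in 0 of them did all 3 GSK-591 libraries. Over all genes tested these shares were 10.1% for MS023 and 5.35% for GSK-591. By the edgeR test, GSK-591 was also called in some of them. Against the TP-472, GSK-484 and UNC0642 libraries 12 were called with MS023 and 4 with GSK-591 (21.2% and 9.97% over all genes). Against untreated cells these counts were 11 and 4 (42.6% and 32.9%). ANGPTL2, a secreted angiopoietin-like protein, had 92.5, 93.4 and 93.9 CPM with GSK-591, 63.1, 57.9 and 58.4 CPM with MS023, and 78.6 CPM on average in untreated cells. It was higher than untreated with GSK-591 (0.25, adjusted p = 0.000186) and lower with MS023 (-0.40, adjusted p = 5.71e-07), and its direct log2 fold change was 0.64 (SE 0.043, edgeR adjusted p = 1.33e-09).

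Most of the remaining rises were genes of low level. KCNJ14, an inward rectifier potassium channel, had 9.43, 11.2 and 8.95 CPM with GSK-591, 5.12, 5.54 and 5.72 CPM with MS023 and 6.68 CPM in untreated cells. C6orf226 had 3.61, 2.36 and 3.11 CPM with GSK-591 and 1.62, 1.65 and 1.53 CPM with MS023. Neither gene overlapped between the groups, and their log2 fold changes were 0.84 (SE 0.13) and 0.94 (SE 0.15), with edgeR adjusted p-values of 0.000253 and 0.000408. MAP2K6, a kinase that activates p38, averaged 3.59 ± 0.307 CPM with GSK-591 and 2.30 ± 0.333 CPM with MS023 (SD, n = 3 each). The teneurin TENM2 averaged 4.47 ± 0.410 and the sarcomeric protein MYPN 5.73 ± 0.435 CPM with GSK-591, against 2.67 ± 0.073 and 3.71 ± 0.247 CPM with MS023. All 12 were called in each of the 6 fits that left out 1 of these libraries.

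The 12 largest falls by the same rule were LINC-PINT, ADM5, RAB26, PKI55, HRNR, P2RY1, ARL10, CFAP126, KCNAB1, SLC35G1, ATP5S and KIAA1919. They divided differently from the rises: MS023 lay outside the 12 other libraries in 5 and GSK-591 in 5. PKI55 was raised with MS023, at 10.0, 12.2 and 12.5 CPM with GSK-591, 19.1, 19.2 and 20.7 CPM with MS023 and 10.7 CPM in untreated cells (log2 fold change -0.76, SE 0.081, edgeR adjusted p = 2.93e-06). RAB26, a small GTPase of secretory vesicles, was at 4.28, 4.28 and 3.13 CPM with GSK-591 and 6.05, 7.57 and 6.88 CPM with MS023, against 3.97 CPM in untreated cells. For both genes all 3 MS023 libraries lay above the range of the 12 others, which the GSK-591 libraries overlapped.

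SLC35G1 and ATP5S gave the converse. SLC35G1, a membrane protein of a solute carrier family, had 8.72, 9.05 and 9.46 CPM with GSK-591, 14.4, 12.7 and 15.3 CPM with MS023 and 15.1, 13.5 and 13.1 CPM in untreated cells. ATP5S, a factor associated with the mitochondrial ATP synthase, had 3.35, 4.09 and 3.96 CPM with GSK-591, 5.76, 5.58 and 6.24 CPM with MS023 and 5.41, 6.25 and 6.41 CPM in untreated cells. In both genes the GSK-591 libraries were the low ones, and MS023 overlapped untreated cells. The log2 fold change was -0.63 in each (SE 0.082 and 0.11), with edgeR adjusted p-values of 3.38e-05 and 0.000941. Of the 12 falls, 7 were called in each of the 6 fits that left out 1 library. HRNR, P2RY1, ARL10, CFAP126 and KCNAB1 lost the call in 1, 2, 5, 6 and 3 of them.

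**Figure D2:**
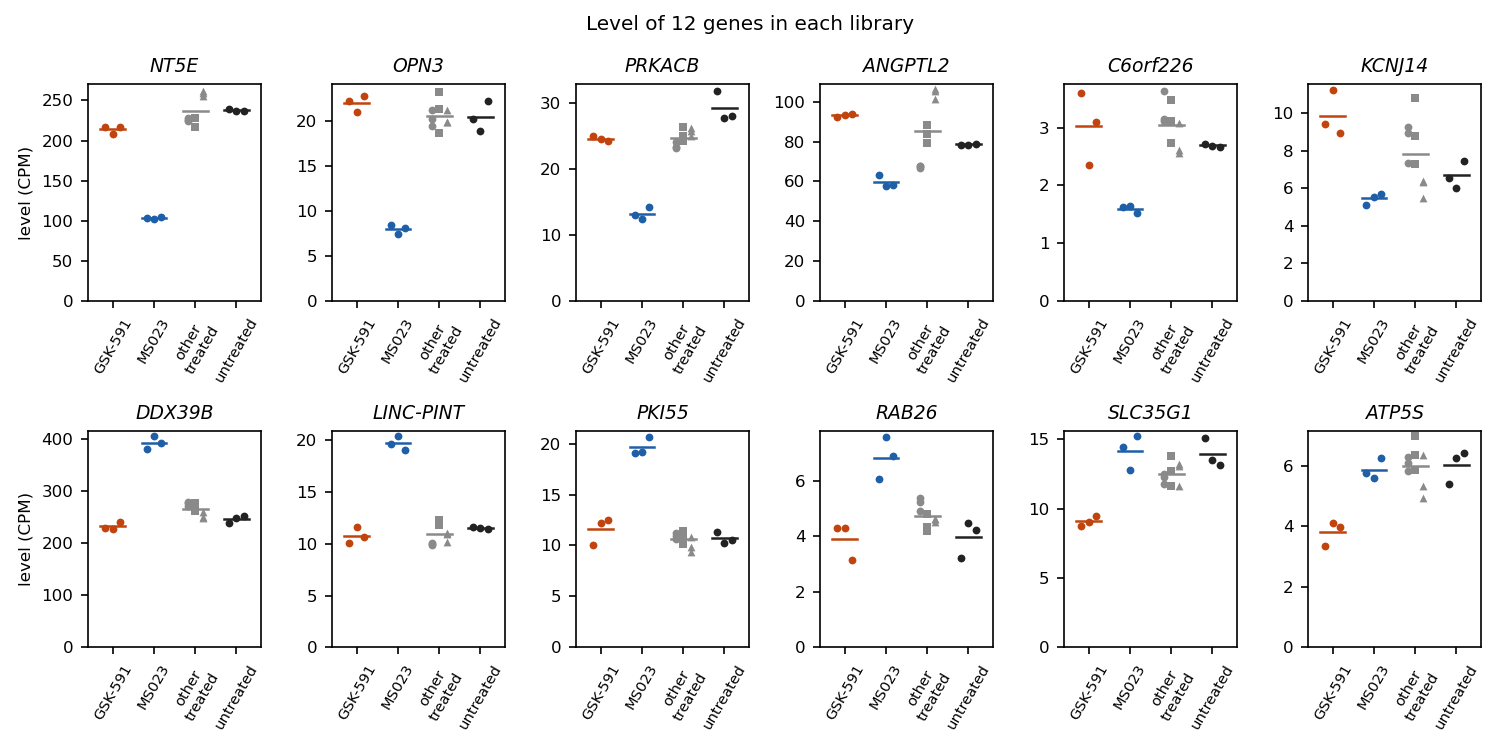
CPM per library (vertical axis, from 0) of 6 genes higher with GSK-591 in the upper row and 6 genes lower in the lower row, with groups from left to right GSK-591, MS023, other treated (TP-472 circles, GSK-484 squares, UNC0642 triangles) and untreated; lines are group means. NT5E shows MS023 alone at 102 to 105 CPM, DDX39B shows MS023 alone at 381 to 406 CPM, and SLC35G1 shows GSK-591 alone at 8.72 to 9.46 CPM.

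Some large differences came from genes whose reads are divided among near copies or overlapping transcripts, and are uncertain. RGPD8, of the RANBP2-like family, averaged 6.40 CPM with GSK-591 and 1.23 CPM with MS023 (log2 fold change 2.32, SE 0.65, edgeR adjusted p = 0.0259), while the sum of RGPD5, RGPD6 and RGPD8 was 62.9 against 69.3 CPM. SCHIP1 averaged 18 against 9.04 CPM, and with its read-through transcript 60.2 against 56.0 CPM. POLR2J2 averaged 2.46 against 6.30 CPM, and the sums with POLR2J3 overlapped between the groups (19.6 against 24.2 CPM). The log2 ratios of the summed means were -0.14 for the RGPD genes, 0.10 for SCHIP1 and -0.31 for the POLR2J genes. The signal recognition particle RNAs RN7SL1 and RN7SL2 summed to 230 ± 60.4 CPM with GSK-591 and 410 ± 109 CPM with MS023 (SD, n = 3 each) without overlap. These RNAs are products of RNA polymerase III. Fractional counts, which leave a value uncertain in the same way, also occurred at PRMT5, CARM1, RBM8A, HERC6, CXCL2, BCL2L2, NGFR and SQSTM1 among the genes described here.

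The enzymes themselves differed little. PRMT5, the target of GSK-591, had 84.6, 85.8 and 86.3 CPM with GSK-591, 88.9, 89.6 and 90.0 CPM with MS023, and 78.3, 80.8 and 79.3 CPM in untreated cells. The groups did not overlap, but the log2 fold change of -0.06 (SE 0.031) was not called (edgeR adjusted p = 0.203). PRMT1, the main type I enzyme, averaged 220 ± 4.18 CPM with GSK-591, 236 ± 9.84 CPM with MS023 and 178 CPM in untreated cells (log2 fold change -0.10, adjusted p = 0.232). Of the 8 methyltransferases tested, 1 was called, against 9.89% over all genes tested. This was PRMT2, with 43.8, 41.0 and 41.7 CPM under GSK-591, 47.3, 49.5 and 47.6 CPM under MS023, and 40.8 CPM in untreated cells. Its MS023 libraries lay above all 12 others, and its log2 fold change was -0.19 (SE 0.044, edgeR adjusted p = 0.00796).

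The other 5 tested enzymes were not called. CARM1 averaged 105 CPM with GSK-591 and 111 CPM with MS023, PRMT3 26.7 and 24.8 CPM, PRMT6 17.8 and 16.2 CPM, PRMT7 26.7 and 29 CPM, and PRMT9 9.87 and 9.60 CPM. PRMT9 had a log2 fold change of 0.04 that turned to -0.0022 once GC trends were removed. PRMT8, largely a neuronal enzyme, was not tested, its highest count in any library being 1. Neither was any of 4 PRMT5 partners called, against 9.89% over all genes tested. WDR77, the obligate cofactor of PRMT5, averaged 26.6 CPM with GSK-591 and 27.5 CPM with MS023. The substrate adaptors averaged 138 and 133 CPM (CLNS1A), 28.1 and 25.1 CPM (RIOK1) and 31.4 and 28.5 CPM (COPRS). Of the 4, 2 were higher and 0 lower at an unadjusted p under 0.05 in edgeR, and DESeq2 called 0.

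Sm proteins are methylated by PRMT5 before they are loaded onto small nuclear RNAs. Of 18 Sm and LSm genes tested, edgeR called 0, against 9.89% over all genes tested, and the difference from that share was not tested. At an unadjusted p under 0.05 in edgeR 1 was higher and 1 lower, and DESeq2 called 0 higher and 1 lower. Total-count scaling, RLE scaling, no expression filter, these groups fitted alone and thinning to the smallest library each also gave 1 lower. SNRPB averaged 412 ± 11.9 CPM with GSK-591 and 424 ± 26.4 CPM with MS023, and SNRPD3 108 ± 3.28 and 106 ± 3.46 CPM (SD, n = 3 each). Of 14 other small nuclear ribonucleoprotein and SMN complex genes, 3 were higher and 0 lower, against 5.43% and 4.46% over all genes. With 1 library left out, 1 to 3 were higher. SNRNP70, the U1 protein that recognizes 5′ splice sites with its RNA, had 297, 293 and 294 CPM with GSK-591, 256, 279 and 258 CPM with MS023 and 216 CPM in untreated cells. The GSK-591 libraries were the highest, above all MS023 libraries and the 12 others, and the log2 fold change was 0.16 (SE 0.038, edgeR adjusted p = 0.0107). GEMIN6 and DDX20, both parts of the SMN complex, were 0.31 and 0.19 higher (adjusted p = 0.00888 and 0.0313), and DDX20 was not called once the GC trend was removed.

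Among 21 SR proteins and their regulators, 5 were higher with GSK-591 and 1 lower, against 5.43% and 4.46% over all genes. The list median was 0.05 against 0 over all genes. SRSF4 had 132, 131 and 128 CPM with GSK-591, 110, 117 and 111 CPM with MS023 and 104 CPM in untreated cells. Its GSK-591 libraries exceeded every MS023 library and all 12 others, with a log2 fold change of 0.21 (SE 0.039, edgeR adjusted p = 0.00175). SRRM1, TRA2B and the SR protein kinase CLK3 were 0.24, 0.19 and 0.20 higher, and SRSF6, given to complete the count, 0.16 higher. SRRM1 had fractional counts, and CLK3 was not called with the GC trend removed (adjusted p = 0.0618). After that removal 4 rose and 2 fell in this list, and its median was 0.0056. SRSF5 fell, at 169 CPM with GSK-591 and 186 CPM with MS023 (-0.14, adjusted p = 0.0483), a call lost whichever of the 6 libraries was left out.

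The hnRNP proteins, which often repress exons that SR proteins promote, had more falls than rises. Of 21 tested, 5 fell and 1 rose, against 4.46% and 5.43% over all genes. After GC trend removal 8 fell and 0 rose, against 5.34% and 5.20%. HNRNPL had 386, 388 and 385 CPM with GSK-591, 437, 458 and 448 CPM with MS023 and 376 CPM in untreated cells. The MS023 libraries were above all others compared, with a log2 fold change of -0.21 (SE 0.030, edgeR adjusted p = 9.64e-05). HNRNPH3 was at 185, 202 and 203 CPM with GSK-591 against 236, 232 and 250 CPM with MS023, without overlap (-0.28, SE 0.037, adjusted p = 3.83e-05, fractional counts). HNRNPM, PTBP1 and HNRNPDL fell by 0.19, 0.16 and 0.14 on the log2 scale. PTBP2, a paralog of PTBP1 that is best known in neurons, was 0.27 higher (adjusted p = 0.0115), a call that was lost with the GC trend removed (adjusted p = 0.0682). Falls numbered 3 without any 1 GSK-591 replicate or without MS023 replicate 1.

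RNA-binding proteins with arginine-glycine motifs, the classic substrates of both enzyme types, moved in both directions. Of 24, 2 rose and 4 fell, against 5.43% and 4.46% over all genes. The list had the same counts in each of the 6 fits that left out 1 library. CHTOP, a chromatin and mRNA export protein that binds PRMT1 and joins DDX39B in TREX, had 94.2, 94.4 and 101 CPM with GSK-591, 123, 126 and 125 CPM with MS023 and 99.1 CPM in untreated cells. MS023 alone left the 93.8 to 110 CPM range of the 12 others, and the log2 fold change was -0.36 (SE 0.043, edgeR adjusted p = 9.77e-06, fractional counts). RBMX, an X-linked hnRNP-like protein, was the mirror image, at 234, 241 and 244 CPM with GSK-591, 196, 184 and 197 CPM with MS023 and 247 CPM in untreated cells (0.32, SE 0.032, adjusted p = 1.11e-06, fractional counts).

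EWSR1 and TAF15, RNA-binding proteins of transcription and splicing, both fell. EWSR1 was at 271, 282 and 278 CPM with GSK-591, 348, 354 and 347 CPM with MS023 and 286, 307 and 300 CPM in untreated cells. Its groups stood on opposite sides of the 12 other libraries (286 to 319 CPM), and the log2 fold change was -0.34 (SE 0.031, edgeR adjusted p = 3.91e-07). TAF15 was at 121, 136 and 155 CPM with GSK-591, 176, 157 and 182 CPM with MS023 and 181, 191 and 181 CPM in untreated cells. Here the GSK-591 libraries were the low ones (-0.33, SE 0.068, adjusted p = 0.00422). The cold-induced protein RBM3 completes the 4 falls, at 129 CPM with GSK-591 and 149 CPM with MS023. PABPN1 differed by -0.41 without a call (29.3 against 39.2 CPM, adjusted p = 0.0747). Of 16 nonsense-mediated decay factors, MAGOHB was 0.25 higher and RBM8A 0.17 lower on the log2 scale. Over all genes tested 5.43% were higher and 4.46% lower. MAGOHB was not called with the GC trend removed (adjusted p = 0.059), and without MS023 replicate 1 neither was called.

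**Figure D3:**
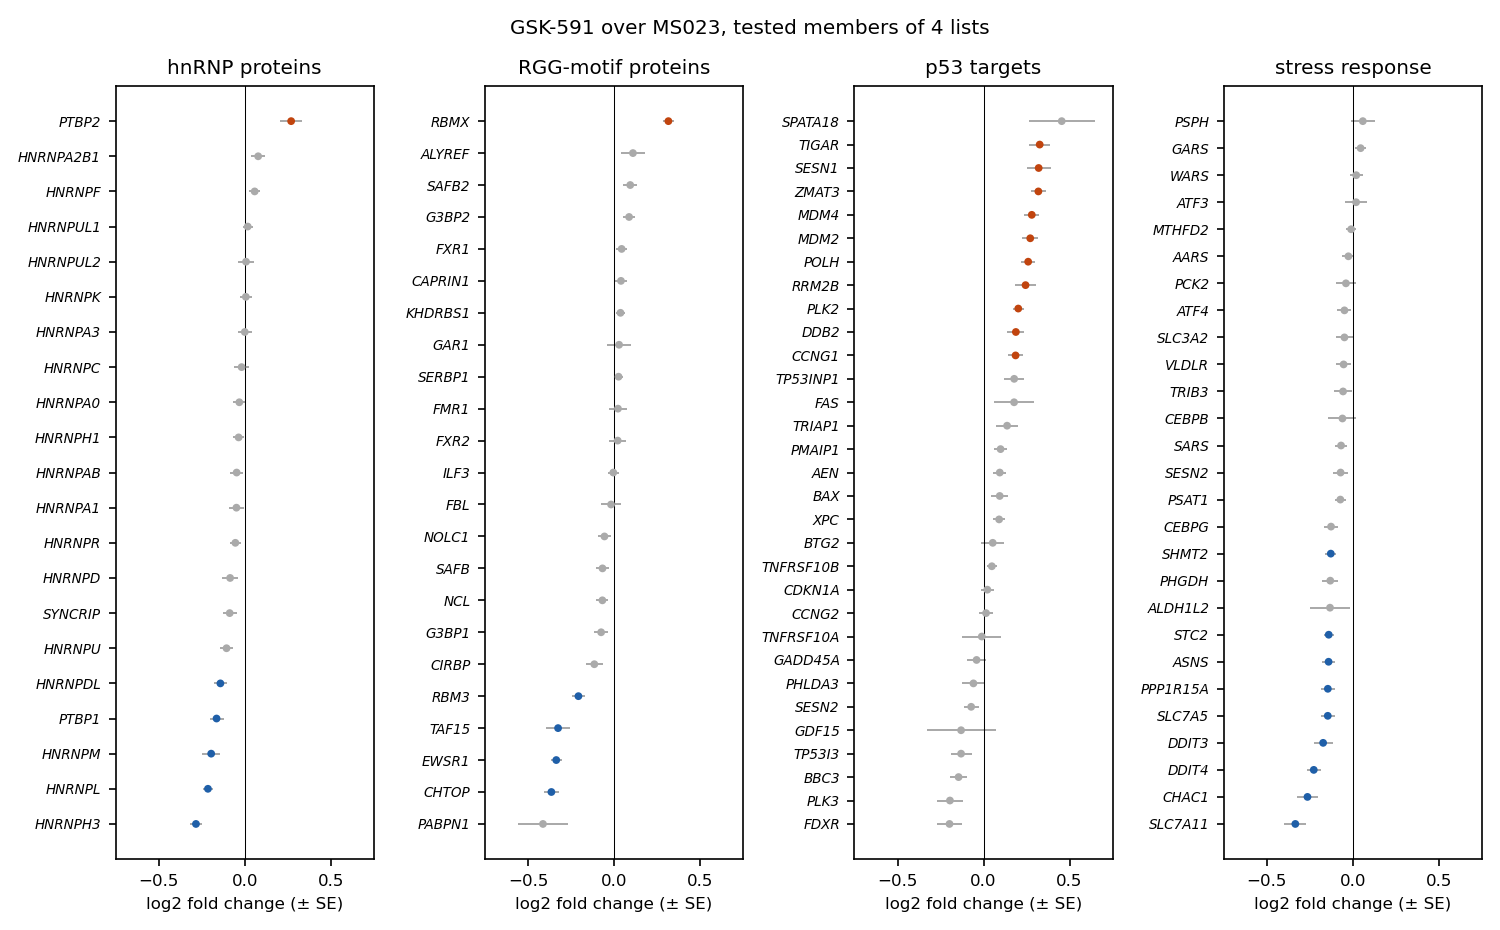
Log2 fold change of GSK-591 over MS023 with its SE for tested members of 4 gene lists, the hnRNP proteins, RNA-binding proteins with arginine-glycine motifs, p53 targets and the integrated stress response; coloured points are called genes. Called p53 targets lie to the higher side and called stress response genes to the lower side, while called arginine-glycine proteins lie on both, CHTOP and EWSR1 at -0.36 and -0.34 and RBMX at 0.32.

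The p53 targets, genes of cell cycle arrest, repair and cell death, were higher with GSK-591 where they were called: 10 of 32 rose and 0 fell, against 5.43% and 4.46% over all genes. The list median was 0.10. At an unadjusted p under 0.05 in edgeR 17 members were higher and 4 lower, against 1890 and 1713 of all 15062 genes. DESeq2 called 11 higher and 0 lower, removal of the GC trend gave 12 and 0, and leaving out 1 library gave 8 to 11 higher, with 1 lower without GSK-591 replicate 1. ZMAT3, an RNA-binding protein, had 125, 129 and 125 CPM with GSK-591, 102, 97.9 and 103 CPM with MS023, and 126 CPM in untreated cells. MDM4, whose messages are regulated by splicing, had 117, 125 and 120 CPM with GSK-591, 95.8, 101 and 100 CPM with MS023, and 120 CPM in untreated cells. In both genes GSK-591 matched untreated cells and MS023 was lower, the log2 fold changes between the compounds being 0.32 (SE 0.044) and 0.28 (SE 0.044) with edgeR adjusted p-values of 8.18e-05 and 0.000285.

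TIGAR, a fructose bisphosphatase, was at 30.6, 35.6 and 35.1 CPM with GSK-591, 25.1, 27.9 and 27.6 CPM with MS023 and 31.5 CPM in untreated cells (0.33, SE 0.062, adjusted p = 0.0018). SESN1, a stress-induced inhibitor of mTORC1, averaged 17.6 ± 0.711 CPM with GSK-591, 14.1 ± 1.07 CPM with MS023 and 15.6 CPM in untreated cells (SD, n = 3). The ubiquitin ligase MDM2, POLH, RRM2B, PLK2, DDB2 and CCNG1 complete the count, with log2 fold changes of 0.19 to 0.27. MDM2 averaged 84.2 CPM with GSK-591, 69.8 CPM with MS023 and 91.3 CPM in untreated cells. The best known target did not differ beyond its error: CDKN1A averaged 426 ± 4.48 CPM with GSK-591 and 419 ± 10.3 CPM with MS023 (0.02, adjusted p = 0.788).

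The position of these genes relative to other libraries depended on which were taken. Against the 9 TP-472, GSK-484 and UNC0642 libraries, ZMAT3 was 0.25 higher with GSK-591 (adjusted p = 0.000191) and -0.07 with MS023 (adjusted p = 0.161), and SESN1 0.32 higher with GSK-591 (adjusted p = 0.000913) and 0.00 with MS023. MDM4 had 0.10 with GSK-591 (adjusted p = 0.072) and was lower with MS023 (-0.18, adjusted p = 0.00117). These comparisons share the 9 libraries.

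Genes of the integrated stress response, the ATF4 programme that raises amino acid transport and synthesis, were lower with GSK-591 than with MS023 where called: 9 of 27 fell and 0 rose, against 4.46% and 5.43% over all genes, with a list median of -0.07. Of the 9, 7 were also called with the GC trend removed. DESeq2 called 12 lower and 0 higher, and leaving out 1 library gave 3 lower (without MS023 replicate 2) to 7 lower. SLC7A11, the cystine transporter, had 29.5, 31.1 and 27.4 CPM with GSK-591, 40.2, 34.8 and 35.7 CPM with MS023, and 46.7 CPM in untreated cells (-0.33, SE 0.063, edgeR adjusted p = 0.00177, fractional counts). Both groups were below untreated cells, GSK-591 further. DDIT4, an inhibitor of mTORC1, had 266, 258 and 260 CPM with GSK-591, 303, 318 and 298 CPM with MS023 and 240 CPM in untreated cells (-0.23, SE 0.042, adjusted p = 0.00152). For DDIT4 both groups were above untreated cells, MS023 further.

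CHAC1, which degrades glutathione, fell by 0.26 (adjusted p = 0.00645) and DDIT3, the CHOP transcription factor, by 0.17 (adjusted p = 0.0477). SLC7A5, PPP1R15A, ASNS, STC2 and SHMT2 complete the count, with log2 fold changes of -0.15 to -0.13. ATF4 itself averaged 586 ± 21.2 CPM with GSK-591 and 607 ± 12 CPM with MS023 (-0.05, adjusted p = 0.505). Among 13 genes of methionine and methylarginine metabolism, MAT2A was the 1 call. It makes S-adenosylmethionine, the methyl donor of all these enzymes, and had 231, 228 and 232 CPM with GSK-591, 261, 264 and 270 CPM with MS023 and 251 CPM in untreated cells. GSK-591 lay below and MS023 above the untreated mean, and the log2 fold change was -0.20 (SE 0.032, edgeR adjusted p = 0.000294, fractional counts). In polyamine and arginine metabolism 3 of 16 genes fell and 0 rose, against 4.46% and 5.43% over all genes. The falls were SMOX (38.9 against 47.5 CPM), ODC1, the first enzyme of polyamine synthesis (154 against 180 CPM), and ASL (12.4 against 14.5 CPM). With the GC trend removed 2 rose and 3 fell.

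Replication and cell cycle genes were mixed. Of 28 G1/S and replication genes, 6 fell and 2 rose, where 4.46% of all genes tested fell and 5.43% rose. RRM2, the small subunit of ribonucleotide reductase, had 231, 231 and 234 CPM with GSK-591, 274, 268 and 281 CPM with MS023 and 285 CPM in untreated cells, GSK-591 being the low group (-0.24, SE 0.031, edgeR adjusted p = 3.02e-05). CDC45, a part of the replicative helicase, averaged 19.6 CPM with GSK-591 and 24.4 CPM with MS023 (-0.32, adjusted p = 0.00138). GINS1, which binds the same helicase, went the other way, with 54.8, 57.1 and 56.4 CPM under GSK-591 and 46.2, 45.1 and 44.0 CPM under MS023 (0.31, SE 0.051, adjusted p = 0.000493). CDC25A, MCM6, TYMS and MCM7 fell by 0.13 to 0.19 and MCM3 was 0.16 higher. Falls numbered 2 without GSK-591 replicate 2, 3 without GSK-591 replicate 3, and 4 to 6 without 1 of the other libraries. Of 24 G2/M genes, TTK, BUB1 and KIF11 rose (0.20, 0.19 and 0.12) and CDC25C fell (-0.18), and KIF11 was not called with the GC trend removed. The CDC25C call was lost whichever of the 6 libraries was left out, and rises numbered 2 in 5 of those fits.

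Of 33 genes of homologous recombination and the Fanconi pathway, 2 rose and 4 fell, against 5.43% and 4.46% over all genes. The ubiquitin ligase FANCL was at 12.9, 14.3 and 13.7 CPM with GSK-591, 16.2, 19.97 and 20.3 CPM with MS023 and 18.8 CPM in untreated cells, with GSK-591 low (-0.47, SE 0.083, edgeR adjusted p = 0.000994). RAD50, of the complex that binds broken ends, was at 19.9, 19.7 and 19.98 CPM with GSK-591, 15.7, 15.6 and 14 CPM with MS023 and 19.4 CPM in untreated cells, with MS023 low (0.40, SE 0.079, adjusted p = 0.00278). Both had fractional counts. RAD51C was 0.32 higher, BRCA1 0.19 lower, and FANCI and RUVBL2, given to complete the count, 0.15 and 0.14 lower. Leaving out 1 library gave 1 to 2 rises and 1 to 2 falls in this list. In the BCL2 family of 16 genes, the apoptosis inhibitors BCL2 and BCL2L2 rose and 0 fell. With the GC trend removed 4 rose, 1 rose without GSK-591 replicate 2 or 3 or MS023 replicate 1, and 1 fell without GSK-591 replicate 1. BCL2 averaged 13.9 CPM with GSK-591, 10.9 CPM with MS023 and 16.9 CPM in untreated cells (0.36, adjusted p = 0.00582).

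Immune genes showed a small, one-sided difference in antigen presentation. Of 18 genes tested, 4 fell and 0 rose, against 4.46% and 5.43% over all genes, with a list median of -0.10. At an unadjusted p under 0.05 in edgeR 11 were lower and 0 higher, against 1713 and 1890 of all 15062 genes. HLA-C had 748, 723 and 740 CPM with GSK-591, 835, 894 and 843 CPM with MS023, and 592, 651 and 656 CPM in untreated cells (-0.22, SE 0.041, edgeR adjusted p = 0.00158). MS023 was the highest group and exceeded all 12 others. HLA-F, TAP2 and HLA-E fell by 0.23, 0.17 and 0.16 on the log2 scale. All 4 had fractional counts. Interferon-stimulated genes were not one-sided: of 40, IFIH1 (0.38) and MX2 (0.18) rose and IRF7 (-0.67, at 1.36 against 2.24 CPM) and HERC6 (-0.39) fell. Among 25 NF-kB targets, the chemokine CCL2 rose (0.46) and CXCL2 (-0.34), IL6 (-0.30) and RELB (-0.16) fell. With 1 library left out, the interferon and NF-kB lists each had 0 to 2 rises and 1 to 3 falls. NF-kB rises numbered 0 without GSK-591 replicate 3 or MS023 replicate 1 or 2.

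Counts in the other lists are to be read beside the 5.43% higher and 4.46% lower over all genes tested. In cholesterol synthesis 2 of 23 rose and 4 fell, while the list median was positive at 0.08: the sterol enzymes TM7SF2, MVD, PMVK and LSS fell by 0.22 to 0.39. Leaving out 1 library gave 0 to 1 rises and 3 falls. Among 15 neural crest and mesenchymal regulators, SNAI2 was at 53.2, 57.6 and 59.3 CPM with GSK-591, 44.0, 43.0 and 47.7 CPM with MS023 and 53.8 CPM in untreated cells (0.34, SE 0.052, edgeR adjusted p = 0.000245). WNT5A rose by 0.14 and NGFR fell by 0.22. Histone genes with poly-A tails had 3 rises and 1 fall of 18. Their rises numbered 1 without GSK-591 replicate 1 or 3 or MS023 replicate 1 or 2, and 1 with these groups fitted alone. HIST2H2AA3 and HIST2H2AA4, identical copies that carry the same divided counts, were 0.54 higher, the linker histone H1FX 0.28 higher and H2AFV 0.14 lower.

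Unfolded protein response and chaperone genes had 2 rises (HSP90AA1 and HSPA8) and 2 falls (HYOU1 and HSPA5) of 22. MAPK output genes also had 2 rises (PHLDA1 and DUSP4) and 2 falls (IER2 and JUNB), of 24. Extracellular matrix and integrin genes had 2 rises (CD44 and TGFBI) and 2 falls (ITGA3 and COL6A2) of 32. Hypoxia-inducible genes had 2 rises (EGLN1 and LOX) and 1 fall (NDRG1) of 24, and NRF2 genes 1 rise (NFE2L2) and 2 falls (PGD and SLC7A11) of 23. In ribosome biogenesis GNL3 rose and POLR1A and NOP56 fell, of 26, and among matrix proteases and inhibitors SERPINE2 rose and ADAM17 and ADAM19 fell, of 20. TGF-beta and YAP targets had 1 rise (TGFBI) and 1 fall (CYR61) of 21. Of 17 host and nuclear noncoding RNAs, SNHG16 rose and NEAT1 and TUG1 fell. Oxidative phosphorylation had 1 fall (ATP5D) of 31 and lysosomal genes 1 (SQSTM1) of 23. With the GC trend removed, IRF7, RELB, HSP90AA1, HSPA8, PMVK, COL6A2, CD44, ADAM19, SERPINE2, WNT5A and SNHG16 were not called. The rises among chaperones numbered 0 in 4 of the 6 fits with 1 library left out, and 0 with total-count scaling. SNHG16 was not called in 5 of those 6 fits, nor with total-count scaling. The lysosomal fall was lost without any 1 GSK-591 replicate or MS023 replicate 2. The oxidative phosphorylation fall and both MAPK falls were lost without GSK-591 replicate 2 or 3 or MS023 replicate 2. NRF2 genes had 0 rises without GSK-591 replicate 2 or 3 or MS023 replicate 1 or 2, and with total-count scaling. Hypoxia-inducible and ribosome biogenesis genes also had fewer calls in some of those fits. The matrix protease list had 0 calls without GSK-591 replicate 1 or without MS023 replicate 1. WNT5A, CD44, PMVK and TGFBI lost their calls whichever library was left out, and TGFBI also with total-count scaling.

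**Figure D4:**
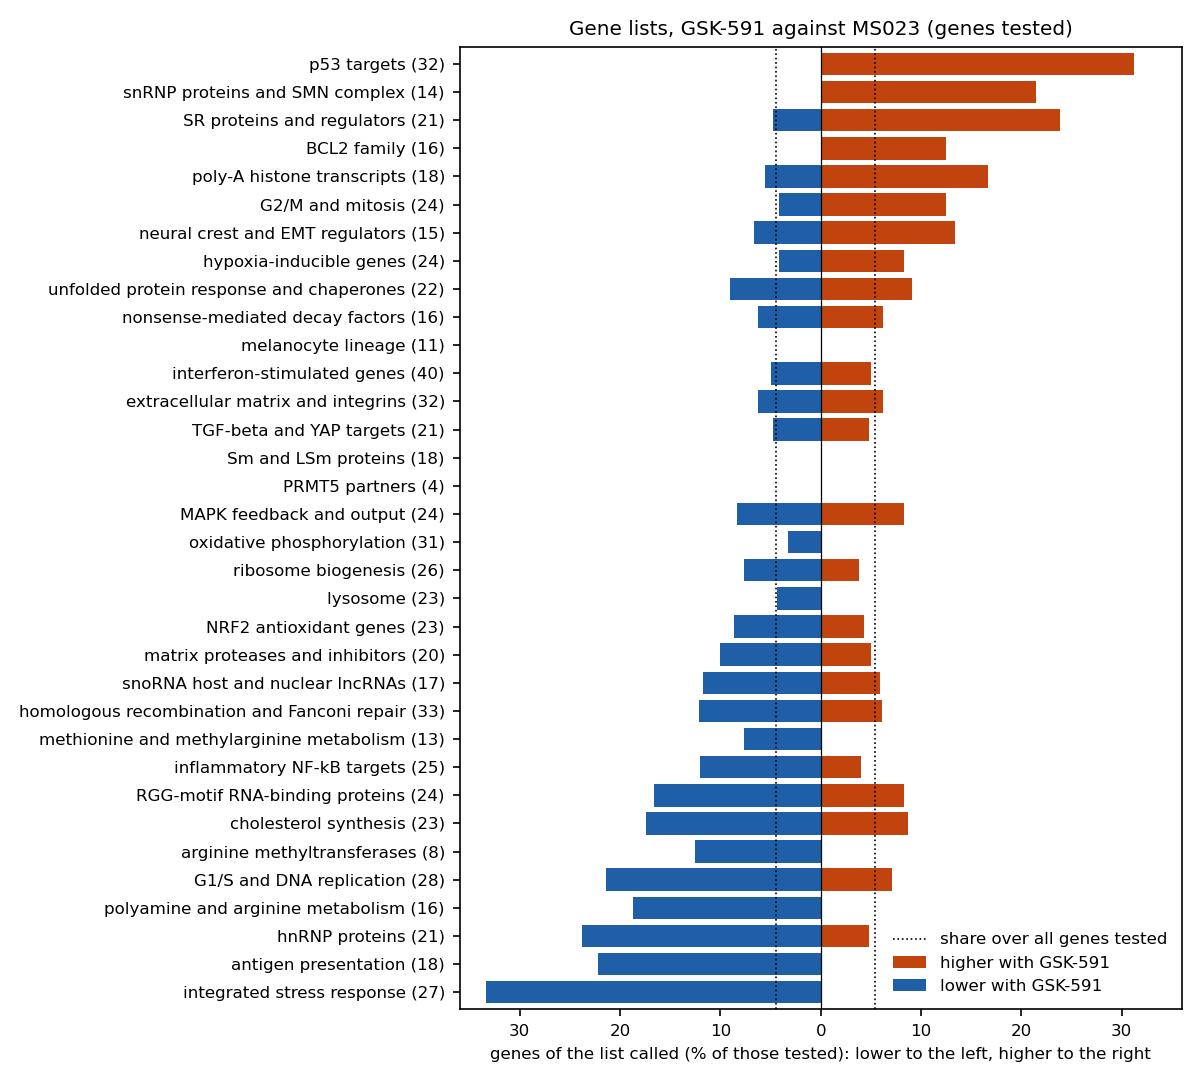
Share of tested members called for each gene list, in percent, with genes lower in GSK-591 to the left and higher to the right; dotted lines mark the shares over all genes tested (4.46% and 5.43%). The p53 targets extend furthest among the larger lists on the higher side, with 10 of 32, and the integrated stress response on the lower side, with 9 of 27.

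Melanocyte markers overlapped between the compounds, while the summed epithelial and immune markers did not. SOX10, a defining factor of melanoma cells, averaged 452 CPM with GSK-591 and 439 CPM with MS023, and MITF 9.77 and 10.1 CPM. The pigment genes PMEL, MLANA, TYR, TYRP1 and DCT averaged at most 0.386 CPM in either group, so differentiated melanocyte markers were nearly absent. Of 11 melanocyte lineage genes, edgeR and DESeq2 each called 0, and 0 passed an unadjusted p under 0.05 in edgeR. Over all genes tested edgeR called 9.89%. The 7 melanocyte markers summed to 449 to 489 CPM with GSK-591 and 431 to 469 CPM with MS023. Epithelial markers summed to 261 to 282 against 284 to 299 CPM (6 of 12 tested, GRHL2 at 0), and fibroblast markers to 16.3 to 17.8 against 16.1 to 16.6 CPM (COL3A1 and DCN at 0). Immune markers summed to 1313 to 1319 against 1339 to 1381 CPM, carried by CD74 and CD68 with PTPRC and CD3E at 0, and endothelial markers to 23.0 to 24.3 against 23.7 to 26.8 CPM (CLDN5 at 0). Epithelial and immune sums were lower in every GSK-591 library than in any MS023 library. Taken singly, 29.5% of all genes tested did not overlap between these groups. At an unadjusted p under 0.05 in edgeR 3 of 6 epithelial markers were lower and 0 higher, and 0 of 3 immune markers differed in either direction. Of the marker genes for other cell types 1 was called, ACTA2 (1.72 against 0.994 CPM, fractional counts), a call that held in 1 of the 6 fits with a library left out. The part of these markers in the other results was not tested.

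The GC content of transcripts moved with the contrast. For each library, log2 CPM was taken relative to the mean of each gene over all 21 libraries. The slope of this deviation per 10 points of transcript GC was 0.012 to 0.066 in the GSK-591 libraries and 0.037 to 0.122 in the MS023 libraries. In untreated cells it was -0.18 to -0.098, and the signs hold only relative to that mean. Across 14648 genes, which are not independent replicates, the fold change between GSK-591 and MS023 had a Spearman correlation with GC of -0.239. In the lowest decile of GC, 117 were higher and 29 lower, and in the highest decile 16 were higher and 112 lower. After the trend was removed library by library these were 75 and 87, and 71 and 83, and 1544 genes were called in all (762 higher, 5.20%, and 782 lower, 5.34%, together 10.5% of 14648). Genes called in the same direction in both fits numbered 1145 (7.60%), with 600 higher (3.98%) and 545 lower (3.62%). All 5 genes past 1.5-fold were among them.

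**Figure D5:**
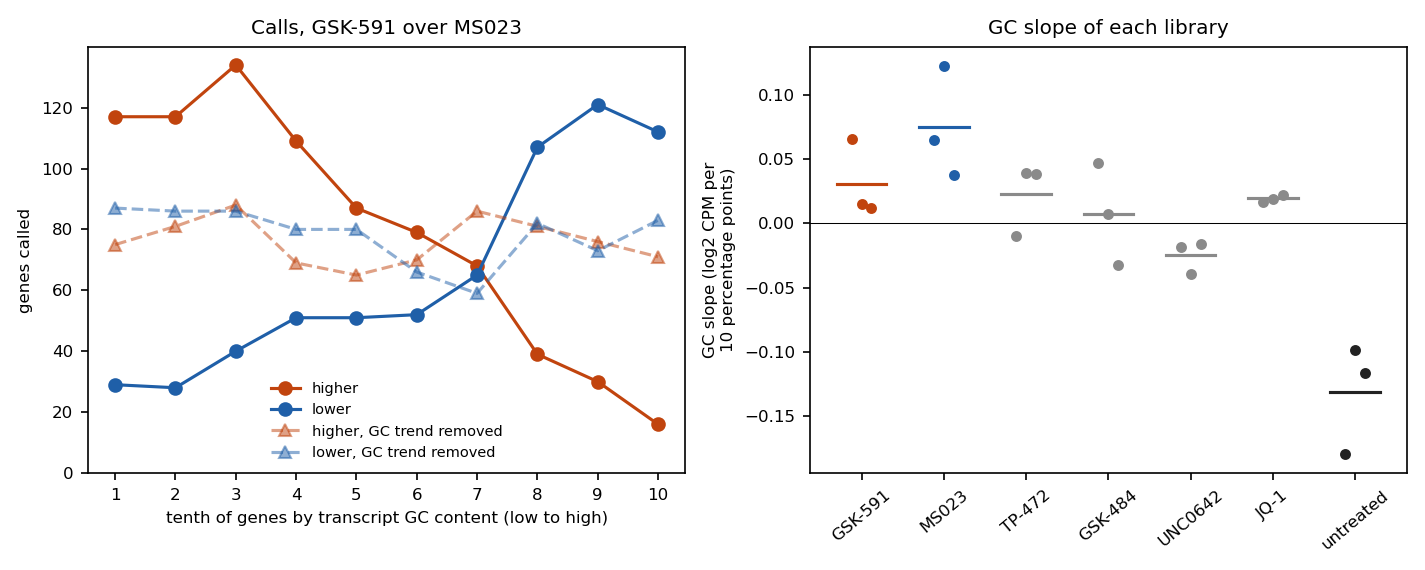
Left, number of genes called higher and lower in GSK-591 than in MS023 per decile of transcript GC content, with the GC trends left in and taken out. Right, slope per 10 points of GC for each library, with log2 CPM taken relative to the mean of each gene over all libraries. The highest decile had 16 higher and 112 lower calls before removal and 71 and 83 after it, and the untreated libraries have the lowest slopes.

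Each compound was also set against untreated cells and against the 9 TP-472, GSK-484 and UNC0642 libraries, to place the direct contrast. Against untreated cells 4952 genes were called with GSK-591 (32.9%; 2728 higher, 18.1%, and 2224 lower, 14.8%) and 6411 with MS023 (42.6%; 3313 higher, 22.0%, and 3098 lower, 20.6%). After removal of the GC trend the counts were 1842 and 2280. Against the 9 other treated libraries 1501 were called with GSK-591 (9.97%), of which 846 were higher (5.62%) and 655 lower (4.35%). With MS023 3190 were called (21.2%), 1703 higher (11.3%) and 1487 lower (9.87%). After GC removal the counts were 1882 and 2414. Each pair of counts shares its comparison libraries, and the difference between the counts was not tested. With GSK-591 replicate 1 left out the first count was 600, and with MS023 replicate 2 left out the second was 1281. Beyond 1.5-fold, 0 genes passed with GSK-591 and 6 with MS023 against the 9 libraries, and 2 and 8 against untreated cells.

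For the genes leading the direct contrast, values against the 9 treated libraries stood as follows. NT5E was -0.14 with GSK-591 (adjusted p = 0.00115) and -1.19 with MS023 (adjusted p = 7.05e-19). PRKACB was -0.01 with GSK-591 (adjusted p = 0.919) and -0.91 with MS023 (adjusted p = 4.97e-11). DDX39B was -0.19 with GSK-591 (adjusted p = 0.000304) and 0.57 with MS023 (adjusted p = 2.73e-12). LINC-PINT was -0.02 with GSK-591 (adjusted p = 0.83) and 0.85 with MS023 (adjusted p = 2.73e-12). EWSR1 was called with both compounds in opposite directions, at -0.16 with GSK-591 (adjusted p = 0.000555) and 0.18 with MS023 (adjusted p = 3.63e-05), as was NEAT1 at -0.21 and 0.37. TAF15 was lower with GSK-591 (-0.37, adjusted p = 0.000283) and -0.05 with MS023 (adjusted p = 0.587). RBMX was 0.03 with GSK-591 (adjusted p = 0.457) and lower with MS023 (-0.28, adjusted p = 2.29e-07).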

How the data were processed

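The deposited table holds expected counts of 26475 genes in 21 libraries, made by the authors with Bowtie2 2.1.0 and RSEM 1.2.15 on build hg38 per the submitters' processing notes. No source used here names the annotation, strand setting or read filters, so reads of overlapping or antisense genes cannot be told apart, and counts per gene do not resolve isoforms. The values were rounded, passed through the expression filter of edgeR 4.0.16 (filterByExpr with a count of 10 and a total of 15), scaled by TMM and fitted with all 21 libraries and group as the only term, JQ-1 entering only the shared estimate of spread. Contrasts used the two-sided quasi-likelihood test with Benjamini-Hochberg adjustment over 15062 genes (called under 0.05, prior count 0.125, common biological coefficient of variation 5.09%), and SE is the absolute log2 fold change over the root of F. An absolute difference beyond 1.5-fold was tested with glmTreat.

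The GC trend was removed as an offset from a loess of log2 CPM (prior count 2) on GENCODE 29 transcript GC (span 0.3, 4 iterations) for 14648 genes (97.3%). GENCODE 29 also gave gene positions, and RefSeq (GRCh38.p14) the promoter windows, matched by symbol for 10975 tested genes. Named genes were the 12 largest rises and 12 largest falls reaching 3 CPM on average in 1 group, no overlap, whole counts and a call after GC removal, 3 and 3 with fractional counts, all methyltransferases and PRMT5 partners, 4 called members per list, NT5E and OPN3. Members completing a count were added after their values were seen, and a few genes that the lists count are not reported here. The contrast, the 38 lists (776 genes, 734 tested) and the rule were chosen with earlier results of these data known. Same-numbered libraries of GSK-591 and MS023 did not deviate together (correlations -0.084 to -0.034), so replicate number was not used as a block. Alternatives were DESeq2 1.42.0, RLE and total-count scaling, no filter, the compared groups alone, a replicate block, thinning to the smallest library, leaving out ribosomal RNA genes, and leaving out each library. Scripts ran in R 4.3.3 and Python 3.11.15, and the fits were tested on simulated data.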

Additional observations from a re-analysis of the deposited data

How the results depend on the processing

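The direct contrast of GSK-591 with MS023 gave 1490 calls, and 1667 with DESeq2, 1472 with RLE scaling, 1182 with total-count scaling, 1286 with no filter, 1544 with the GC trend removed, 1311 with these groups fitted alone, 1095 after thinning to the smallest library and 1490 without ribosomal RNA genes. A replicate block gave 1383 and the block with GC removal 1452, but the samples share only a number. The 1.5-fold threshold left 5 genes. Leaving out 1 library gave 827 to 1200.

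Against untreated cells, GSK-591 had 4952 calls, 1842 with the GC trend removed, 1715 with the block and GC removal, 2 beyond 1.5-fold and 3243 (without untreated replicate 1) to 4937 without 1 library. MS023 had 6411, then 2280, 2202, 8 and 4917 to 6167. Against the 9 other treated libraries GSK-591 had 1501 calls, 0 beyond 1.5-fold and 600 to 1926 without 1 library (760 and 812 without GSK-591 replicates 2 and 3), and MS023 had 3190, 6 and 1281 to 3824. Total-count scaling turned the splits of higher and lower calls to 1574 and 3327 for GSK-591 and 2547 and 3994 for MS023 against untreated cells, and to 310 and 1142, and 1032 and 1865, against the other treated libraries.

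Of 130 called genes named by the rule, the direction and call held for 127 in DESeq2, 129 with RLE scaling, 115 with total-count scaling, 114 with GC removal, 115 with no filter, 107 after thinning, 122 with the block and 87 to 106 without 1 library. PRMT9, not called, turned from 0.04 to -0.0022 with the GC trend removed. The cause of these shifts was not tested. With 3 libraries a group, a gene that was not called may still differ between the compounds.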
